A study of Mus musculus with 8 samples.

Results

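The apelin ligand gene Apln and the apelin receptor gene Aplnr were chosen by symbol, not by their values, and each had 1 row in the table of 22518 genes, so that both members of the pair were measured. The hearts came from C57BL/6 mice at postnatal day 12. There were 4 libraries labelled wild type, from littermate controls, and 4 from mice with an endothelial knockout of PHD2/3, the prolyl hydroxylases encoded by Egln1 and Egln3. The promoter that drove the deletion, the deleted exons and whether each library was a separate animal are not stated in the labels. The p-values therefore measure the spread between these libraries, each of which is called a heart below. Levels are FPKM, in which fragments are counted per length of transcript and per size of the library, and were quantile-normalised by the authors. Apln and Aplnr both had a mean of at least 1 FPKM and were tested with limma among 11390 genes, of which 12.2% passed at adjusted p under 0.05.

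Apelin is a secreted peptide cut from a longer precursor, and its receptor APJ, the product of Aplnr, is a G-protein-coupled receptor of the cell surface. A further peptide ligand, Elabela, is encoded by Apela. In growing vessels, apelin is known as a product of sprouting endothelial cells and the receptor as a gene of venous and capillary endothelium, and in the heart the pathway is known for vasodilation and for support of contraction. PHD2 and PHD3 mark hypoxia-inducible factors (HIF) for breakdown when oxygen is present, and Apln is known as a gene that responds to hypoxia. The comparison describes how the ligand and its receptor stood to each other in whole hearts whose endothelium had lost both enzymes.

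Apln lies on the reverse strand of chromosome X (mm10, 48025146 to 48034853), and its GENCODE M21 transcript has 3 exons and 231 coding bases. Aplnr lies on the forward strand of chromosome 2 (85136225 to 85139923), and its main transcript is a single exon with 1131 coding bases. In this annotation 0 other genes overlapped either locus. The promoter of the ligand is shown because HIF binds a short core motif, and the ligand is known to respond to hypoxia. The stretch is the 250 bases before the Apln start in RefSeq on GRCm38.p6, chrX:48034854-48035103 on the reverse strand, written 5′ to 3′; capitals would mark the core motifs ACGTG or GCGTG on either strand.
Apln promoter: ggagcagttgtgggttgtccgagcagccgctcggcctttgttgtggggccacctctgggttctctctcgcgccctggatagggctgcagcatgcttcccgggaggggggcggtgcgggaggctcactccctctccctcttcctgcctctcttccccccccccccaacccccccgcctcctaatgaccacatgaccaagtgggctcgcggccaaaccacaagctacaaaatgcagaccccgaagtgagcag
Neither motif was found in this stretch or in the 50 bases after the start. Of 32851 promoters of the same length in the RefSeq table, 43.8% hold at least 1 of the motifs, 19.6% ACGTG and 32.4% GCGTG. The absence of these letters from this window says nothing of binding elsewhere in the gene.

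The receptor fell and the ligand did not pass the test. Aplnr levels in wild type replicates 1 to 4 were 47.3, 50.8, 48.0 and 46.6 FPKM, against 16.1, 8.56, 10.0 and 2.44 FPKM in knockout replicates 1 to 4. Every knockout heart was below every wild type heart, and the highest knockout heart, replicate 1, was still far from the wild type range. The mean went from 48.2 ± 1.85 FPKM (SD, n = 4) to 9.27 ± 5.6 FPKM (SD, n = 4), a log2 change of -2.47 ± 0.41 (SE; limma adjusted p = 0.00830; 95% interval -3.41 to -1.53). Of all tested genes, 6.01% were lowered past the same threshold, and Aplnr had the third largest fall, at place 3 of 11390. With the test set to a minimum change of 1.5-fold, which called 37 genes in all, Aplnr was not called (limma adjusted p = 0.148).

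Apln levels in wild type replicates 1 to 4 were 11.8, 18.1, 17.5 and 19.6 FPKM, against 42.1, 24.1, 27.4 and 16.6 FPKM in knockout replicates 1 to 4. The first 3 knockout hearts were above all wild type hearts, and knockout replicate 4 lay within the wild type range. The means were 16.7 ± 3.40 FPKM (SD, n = 4) in wild type hearts and 27.6 ± 10.7 FPKM (SD, n = 4) in the knockout group, a log2 difference of 0.63 ± 0.25 (SE; limma adjusted p = 0.130; 95% interval 0.06 to 1.20, not adjusted for the number of genes). A difference at least this large in either direction was found in 5.59% of the tested genes. Knockout replicate 4 carries a library number that stands apart from those of the other 7 libraries, so a batch cannot be told apart from that heart. Without it Apln was called, at a log2 change of 0.84 ± 0.21 (limma adjusted p = 0.0360), while without knockout replicate 1 the difference was 0.41 ± 0.20 (limma adjusted p = 0.178). Array weights, which give each library a weight from its own spread, also gave a call (0.71 ± 0.20, limma adjusted p = 0.0356), as did leaving out both replicates 4 (0.92 ± 0.22, limma adjusted p = 0.0452). Thus 1 of the 2 members passed the test, and 1 of 2 had no overlap between the groups, against 20.7% of all tested genes.

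**Figure D1:**
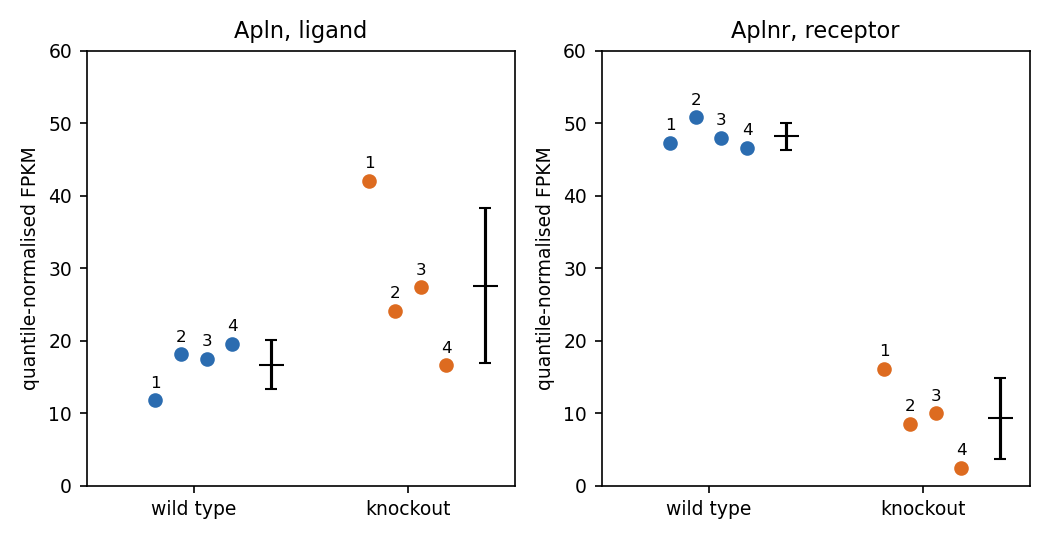
Quantile-normalised FPKM of Apln (left) and Aplnr (right) in each heart library, numbered by replicate, with wild type in blue and knockout in orange; the black bar with whiskers marks the mean ± SD of 4 libraries. Aplnr lies between 46.6 and 50.8 FPKM in wild type hearts and between 2.44 and 16.1 FPKM in the knockout group, while knockout replicate 4 lies among the wild type hearts for Apln.

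The places of the 2 genes within each library restate these levels, since quantile normalisation ties level to rank, and show where they lay among all genes. Counted from the highest of the 22518 genes, Aplnr stood at places 1226 to 1332 in the wild type hearts. In knockout replicates 1 to 4 it stood at places 3467, 5465, 4913 and 9499. Apln stood at places 2939 to 4371 in the wild type hearts and at places 1483, 2486, 2226 and 3373 in the knockout hearts.

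The spread of the receptor differed between the groups in size. Its coefficient of variation, the SD as a percent of the mean, was 3.84% in wild type and 60.4% in knockout hearts. On the log2(FPKM + 1) scale its SD was 0.05 in wild type hearts, where 9.65% of tested genes had a smaller one, and 0.98 in knockout hearts, where 99.4% had a smaller one. For Apln the SDs were 0.30 and 0.53, against medians over all tested genes of 0.12 in wild type and 0.16 in knockout hearts. Knockout replicate 4 carried much of the spread of the receptor: without it the coefficient of variation of Aplnr in the knockout group was 34.4% and its log2 SD 0.44, with a smaller SD in 96.4% of tested genes. The difference in spread between the groups was not tested. The SE and interval given above for Aplnr pool both groups in 1 variance, so they describe the spread of neither. The same holds for the SE of the relative value of Aplnr given below. In the knockout group the order of the hearts, from replicate 1 over 3 and 2 to 4, was the same for ligand and receptor. In the wild type group the order differed, since replicate 4 had the highest ligand and the lowest receptor value.

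Set against each other in the same heart, ligand and receptor changed places. Aplnr exceeded Apln 3.99-, 2.81-, 2.75- and 2.38-fold in wild type replicates 1 to 4. In knockout replicates 1 to 4 Apln exceeded Aplnr 2.62-, 2.81-, 2.73- and 6.83-fold. Knockout replicates 1, 2 and 3 thus had almost the same ratio although their Apln levels ran from 24.1 to 42.1 FPKM. The log2 ratio, with 1 FPKM added to each level, was -1.49 ± 0.30 (SD, n = 4) in wild type and 1.61 ± 0.50 (SD, n = 4) in knockout hearts. The difference of 3.11 ± 0.29 (SE) had an exact two-sided permutation p of 0.0286, the smallest that the 70 splits of 4 against 4 can give, and the same value after adjustment over the 6 permutation tests of ligand, receptor and comparison pairs. All 6 tests gave this smallest p, so the adjustment could not change it. The tests share the values of Apln or Aplnr and are not independent. The ratio was higher in all 4 knockout hearts than in any wild type heart. Most of its shift was that of Aplnr, with a log2 change of -2.47, against 0.63 for Apln, which did not pass. The ratio thus largely restates the fall of Aplnr.

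**Figure D2:**
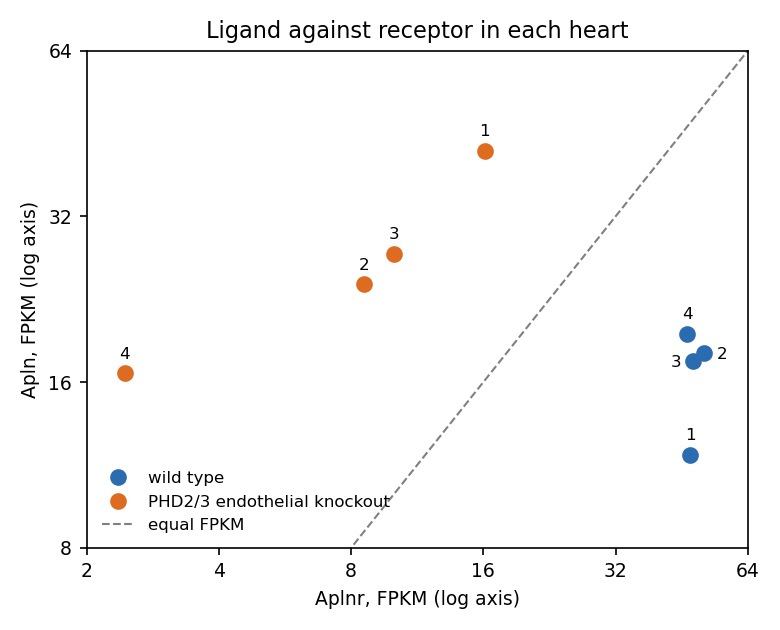
Apln (vertical, FPKM, log axis) against Aplnr (horizontal, FPKM, log axis) in each heart, numbered by replicate, with wild type in blue and knockout in orange; the dashed line marks equal FPKM. The wild type hearts lie to the right of the line, at Aplnr levels of 46.6 to 50.8 FPKM, and the knockout hearts lie to its left.

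The sum of ligand and receptor levels was 64.9 ± 4.14 FPKM (SD, n = 4) in wild type hearts and 36.8 ± 16.2 FPKM (SD, n = 4) in the knockout group. It was not tested. Its values in knockout replicates 1 to 4 were 58.2, 32.6, 37.5 and 19.1 FPKM, so that replicate 1 came close to the wild type range of 59.1 to 68.9 FPKM.

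Genes shared by endothelial cells changed much less than the receptor. Of 12 pan-endothelial genes, 0 rose and 3 fell, and the other 9 did not pass, with a median log2 difference of -0.21 against -0.01 over all tested genes. These counts stand beside 6.15% raised and 6.01% lowered among all tested genes. The 3 that fell were the angiopoietin receptor Tek (log2 change -0.57 ± 0.10, limma adjusted p = 0.00779), its relative Tie1 (-0.62 ± 0.08, limma adjusted p = 0.00202) and the guidance receptor Robo4 (-0.63 ± 0.12, limma adjusted p = 0.0117). Pecam1, an adhesion molecule between endothelial cells, was at 94.5 ± 5.0 FPKM in wild type hearts and 111 ± 6.94 FPKM in the knockout group. Cdh5, the cadherin of endothelial junctions, was at 94.9 ± 1.60 FPKM in wild type hearts and 80.7 ± 9.40 FPKM in the knockout group. The summed level of the list was 596 to 711 FPKM in wild type hearts and 532 to 632 FPKM in the knockout group. In whole tissue, fewer cells of a type and less RNA per cell cannot be told apart.

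Relative to the mean log2(FPKM + 1) of these 12 genes in the same heart, Aplnr was at 0.23, 0.28, 0.28 and 0.08 in wild type replicates 1 to 4, against -1.21, -1.81, -1.73 and -3.31 in knockout replicates 1 to 4. All knockout hearts were lower, and the difference in means was -2.23 ± 0.45 (SE; exact two-sided permutation p = 0.0286, and 0.0286 adjusted over the 6 tests). Apln, on the same relative scale, was at -1.68, -1.16, -1.13 and -1.12 in the wild type and at 0.12, -0.42, -0.36 and -0.95 in the knockout replicates. All knockout hearts were higher here, by a mean of 0.87 ± 0.26 (SE; exact two-sided permutation p = 0.0286, and 0.0286 adjusted over the 6 tests). This call for Apln depended on the reference genes: against only Pecam1, Cdh5, Erg and Esam the difference was 0.70 and the exact permutation p was 0.114.

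Among genes of capillary endothelium, where Aplnr is known to be expressed, 0 of 9 rose and 5 fell, and the other 4 did not pass. The median log2 difference of this list was -0.59. Over all tested genes, 6.15% were raised and 6.01% lowered. The carbonic anhydrase Car4 fell by 3.42 on the log2 scale (SE 0.30, limma adjusted p = 0.000499), the water channel Aqp1 by 1.97 (SE 0.27, limma adjusted p = 0.00295), the transcription factor Tcf15 by 1.72 (SE 0.14, limma adjusted p = 0.000361) and the cell cycle regulator Rgcc by 1.40 (SE 0.14, limma adjusted p = 0.000788). Cd300lg, a capillary surface receptor, fell by 0.59 (SE 0.09, limma adjusted p = 0.00485). The fatty acid transporter Cd36 was at 434 ± 63.2 FPKM in wild type hearts and 433 ± 92.5 FPKM in the knockout group, and the fatty acid binding protein Fabp4 at 1580 ± 209 FPKM in wild type hearts and 1450 ± 152 FPKM in the knockout group. The log2 change of Aplnr, -2.47, lay between those of Car4 and Aqp1, and no test compared them.

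Of genes of sprouting tip cells, where Apln is known to be expressed, 8 of 12 rose and 0 fell, and the other 4 did not pass, with a median log2 difference of 0.62. Esm1, Angpt2, Kcne3, Plaur, Mcam, Col4a1, Col4a2 and Pgf rose. Those that did not pass were Cxcr4 (log2 difference 0.26 ± 0.22, limma adjusted p = 0.470), Dll4 (0.06 ± 0.17, limma adjusted p = 0.846), Nid1 and Nid2. Among all tested genes 6.15% were raised and 6.01% lowered. Of 5 vein genes, 3 were tested, of which 1 rose and 1 fell, and of 6 artery genes 1 rose and 1 fell. Of 5 endocardial genes, 4 were tested and 1 fell. The part of these lists in the change of Apln or Aplnr was not tested.

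The 2 groups were also compared in markers of other cells, beside the 6.15% raised and 6.01% lowered among all tested genes. Cardiomyocyte genes summed to between 14900 and 17000 FPKM in wild type hearts and between 12900 and 15700 FPKM in the knockout group, and 1 of 6 fell. Fibroblast genes summed to 691 to 774 FPKM in wild type hearts and 367 to 523 FPKM in the knockout group, and 3 of 6 fell. Of 7 smooth muscle and pericyte genes 1 rose, of 5 macrophage genes 0 passed the test, and the 2 tested of 4 adipocyte genes did not pass. The adipocyte list was uneven between hearts, with sums of 0 to 5.59 FPKM in wild type hearts and 0 to 16.1 FPKM in the knockout group. Its relation to the level of Apln was not tested. Of 10 lung genes, Cldn18 and Lamp3 were listed at 0 in all hearts. The sum of the lung list was 1250 FPKM in wild type replicate 4, of which the airway genes Scgb1a1 and Scgb3a2 made up 82.8% and 16.6%, and at most 1.44 FPKM in the knockout hearts. The fall of Aplnr was as large without wild type replicate 4 (log2 change -2.49 ± 0.45, limma adjusted p = 0.0188). The targeted genes were not lower, with Egln1 at 52.9 ± 5.40 FPKM in wild type hearts and 57.4 ± 4.73 FPKM in the knockout group and Egln3 at 28.2 ± 8.83 and 40.8 ± 8.58 FPKM, and a gene-level value of a whole heart does not check a deletion in the endothelium.

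Since Apln is X-linked, the Y chromosome gene Ddx3y was read in the same hearts. Its levels in wild type replicates 1 to 4 were 14.0, 0.138, 1.10 and 15.0 FPKM, against 0.104, 16.8, 19.3 and 22.2 FPKM in knockout replicates 1 to 4. Knockout replicate 1, which had the highest Apln and the highest Aplnr of its group, was the only knockout heart with Ddx3y near 0. The wild type hearts lowest in Ddx3y, replicates 2 and 3, did not have the highest Apln. Their Apln, 18.1 and 17.5 FPKM, lay between that of replicate 1 (11.8 FPKM) and replicate 4 (19.6 FPKM). Their Aplnr, 50.8 and 48.0 FPKM, was slightly above that of replicate 1 (47.3 FPKM) and replicate 4 (46.6 FPKM). An effect of sex on either gene was not tested. With Ddx3y as a covariate, chosen after seeing the data, the log2 change of Apln was 0.78 ± 0.20 (limma adjusted p = 0.0491) and that of Aplnr was -2.29 ± 0.38 (limma adjusted p = 0.0121). With the same covariate the targeted gene Egln3 was called as raised (0.70 ± 0.15, limma adjusted p = 0.0222), against 0.55 ± 0.22 (limma adjusted p = 0.132) without it.

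Compared with 3 other ligand and receptor pairs, the apelin pair had the larger shift in its ratio. Which cells made each ligand cannot be told from whole hearts. Adm, the vasodilator adrenomedullin, rose from 8.05 ± 3.20 to 23.1 ± 4.03 FPKM, and its receptor subunit Calcrl rose from 12.8 ± 2.43 to 23.5 ± 2.49 FPKM. Adm rose 2.86-fold and Calcrl 1.84-fold, and their ratio went from 0.616 ± 0.168 to 0.978 ± 0.110. This ratio did not overlap between the groups, at 0.394 to 0.8 in wild type and 0.855 to 1.12 in knockout hearts. Vegfa, the main endothelial growth factor, was at 84.6 ± 7.39 FPKM in wild type hearts and 104 ± 29.8 FPKM in the knockout group, and its receptor Kdr at 40.6 ± 1.83 FPKM in wild type hearts and 35.4 ± 4.22 FPKM in the knockout group. Neither passed the test, and their ratio overlapped between the groups. Angpt2, the ligand that antagonises TIE2 signalling, rose from 2.05 ± 0.517 to 3.85 ± 0.855 FPKM, and Tek, which encodes TIE2, fell from 22.4 ± 1.52 to 14.8 ± 2.01 FPKM. This pair therefore moved in the same 2 directions as the values of Apln and Aplnr. Its ratio did not overlap between the groups either, at 0.0696 to 0.111 in wild type and 0.193 to 0.359 in knockout hearts. The mean ratio of this pair was 0.0917 ± 0.0218 in wild type and 0.264 ± 0.0719 in knockout hearts, and it stayed below 1 in all hearts. The call of Angpt2 was lost on omission of wild type replicate 1, of wild type replicate 2 and of knockout replicate 2.

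The log2 ratio of the apelin pair rose by 2.48 ± 0.33 (SE) more than that of Adm to Calcrl, by 2.65 ± 0.35 more than that of Vegfa to Kdr and by 1.87 ± 0.17 more than that of Angpt2 to Tek. Each of these differences was higher in all 4 knockout hearts than in any wild type heart, with an exact two-sided permutation p of 0.0286 and 0.0286 after adjustment over the 6 tests.

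**Figure D3:**
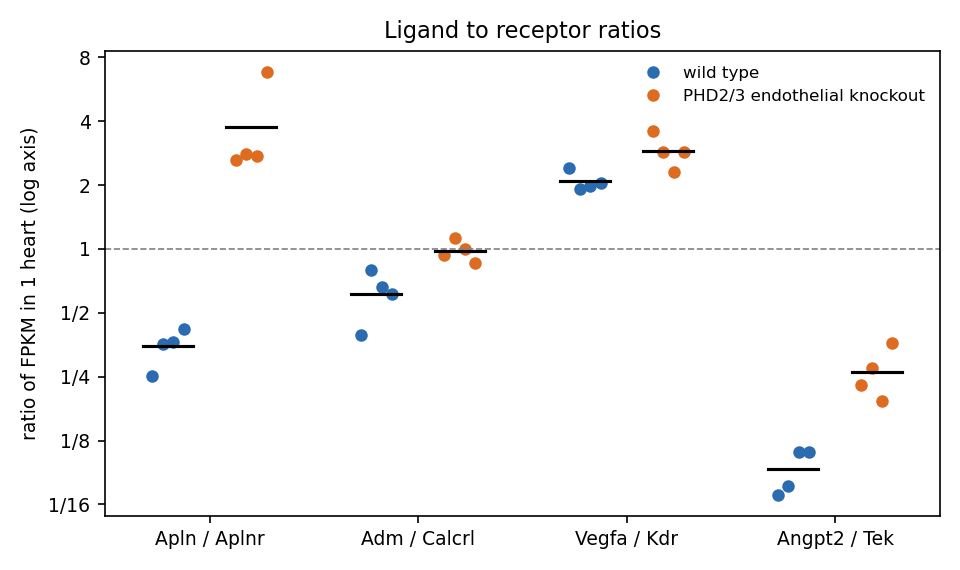
Ligand over receptor FPKM within 1 heart (log axis) for 4 ligand and receptor pairs. Points are libraries (wild type in blue, knockout in orange) and black lines their means over 4. The mean Apln over Aplnr ratio moves from 0.348 to 3.75 across the dashed line at 1, and those of Adm over Calcrl, Vegfa over Kdr and Angpt2 over Tek move less.

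The other genes of the pathway changed by less than the receptor. Of 27 genes listed around the pair, 26 were matched in the table and 23 were tested. Of these 3 rose and 1 fell, and the other 19 did not pass, beside 6.15% raised and 6.01% lowered among all tested genes. The median log2 difference of the 23 genes was 0.10, against -0.01 over all tested genes. The second ligand gene Apela was not analysed here, because the identifier it has in GENCODE M21 carries another symbol in the table.

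Among the enzymes that cut or break down the peptide, only Furin, the convertase that processes the apelin precursor, was high enough to be tested. It was at 23.9 ± 3.56 FPKM in wild type hearts and 34.5 ± 9.54 FPKM in the knockout group (limma adjusted p = 0.140), and it was called without knockout replicate 1 (limma adjusted p = 0.0116). Mme, the peptidase neprilysin, was at 1.19 ± 0.292 FPKM in wild type hearts and 0.502 ± 0.137 FPKM in the knockout group, below the level for testing, with no overlap between the groups. Klkb1, which encodes plasma kallikrein, was at or near 0 in all hearts.

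Among the proteins that couple to the receptor, 2 of 8 rose and 0 fell, beside 6.15% raised and 6.01% lowered among all tested genes. Arrb1, a beta-arrestin that takes active receptors out of the membrane, rose from 6.34 ± 0.847 to 10.0 ± 0.999 FPKM (log2 change 0.59 ± 0.10, limma adjusted p = 0.00812). Its paralog Arrb2 was at 6.80 ± 0.668 FPKM in wild type hearts and 5.32 ± 1.04 FPKM in the knockout group (limma adjusted p = 0.134). The G-protein subunit gene Gna13 rose from 8.64 ± 0.785 to 12.5 ± 2.24 FPKM (log2 change 0.47 ± 0.12, limma adjusted p = 0.0353). The call of Gna13 was lost in 5 of 8 omissions of 1 heart, those of wild type replicate 1, 2 or 3 and knockout replicate 2 or 3. The inhibitory subunit gene Gnai2, the highest of the coupling genes, was at 120 ± 2.66 FPKM in wild type hearts and 113 ± 12.3 FPKM in the knockout group.

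Downstream of the receptor 1 of 13 genes rose and 1 fell, close to the 6.15% raised and 6.01% lowered among all tested genes. Fgfr1, a fibroblast growth factor receptor, rose from 12.1 ± 0.273 to 17.0 ± 1.29 FPKM (log2 change 0.45 ± 0.08, limma adjusted p = 0.00662). Hdac5, a histone deacetylase that represses MEF2 factors, fell from 28.8 ± 1.04 to 20.0 ± 3.79 FPKM (log2 change -0.52 ± 0.12, limma adjusted p = 0.0248). The call of Hdac5 was lost in 5 of 8 omissions, those of any wild type replicate and of knockout replicate 2, and under the replicate block. Klf2, a flow-responsive transcription factor of endothelium, was at 25.4 ± 6.39 FPKM in wild type hearts and 17.4 ± 2.53 FPKM in the knockout group (limma adjusted p = 0.0891). It was called without wild type replicate 4, without both replicates 4 and with array weights. Nos3, the endothelial nitric oxide synthase gene, was at 14.1 ± 1.27 FPKM in wild type hearts and 15.1 ± 2.99 FPKM in the knockout group, and Mef2c, a transcription factor that HDAC5 represses, at 9.26 ± 0.722 FPKM in wild type hearts and 10.8 ± 0.301 FPKM in the knockout group.

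**Figure D4:**
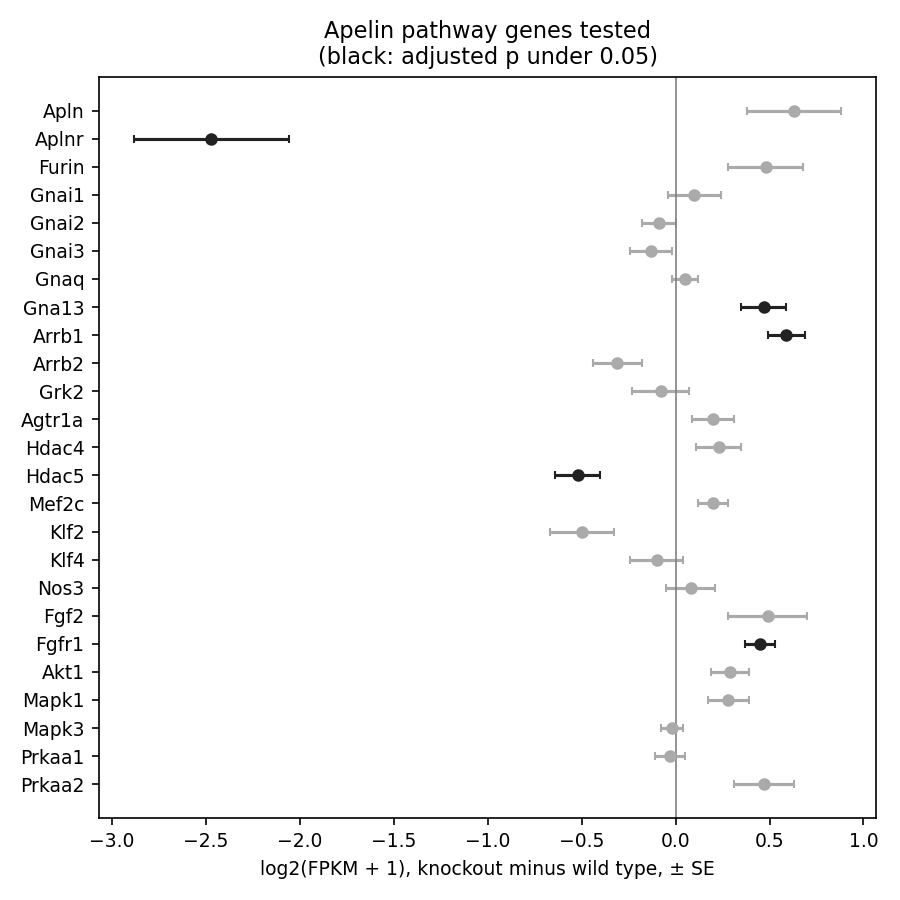
Difference in log2(FPKM + 1), knockout minus wild type, with its SE for Apln, Aplnr and the 23 tested genes of the apelin pathway list, black where adjusted p was under 0.05. Aplnr lies at -2.47, and the listed pathway genes lie between -0.52 (Hdac5) and 0.59 (Arrb1).

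The genes most like each member were ranked by the Pearson correlation of log2(FPKM + 1) over the 8 hearts, a description in which the hearts share the 2 groups and in which genes are not independent. For Aplnr the 5 closest were the vesicle fusion gene Stx4a (r = 0.993), the water channel Aqp1 (r = 0.990), the sialyltransferase St6galnac2 (r = 0.990), the matrix gene Hmcn2 (r = 0.987) and Serf1 (r = 0.987). All 5 fell in the knockout hearts, beside 6.01% lowered among all tested genes, and each of them was also lowest in knockout replicate 4. Hmcn2, for example, was at 3.40, 1.27, 1.02 and 0.0941 FPKM in knockout replicates 1 to 4. Both patterns are largely set by picking genes for their likeness to Aplnr in these same hearts, and add no support. For Apln the closest were Sec23b, of the coat of secretory vesicles (r = 0.971), the kinase Pak4 (r = 0.970), the class I histocompatibility light chain B2m (r = 0.964), Trp53i11 (r = 0.964) and Plod3, a collagen lysyl hydroxylase (r = 0.955). None of these 5 passed the test, beside 12.2% called among all tested genes. Each was highest in knockout replicate 1 and lowest in wild type replicate 1, as Apln was, which their choice by likeness to Apln largely sets. A correlation above 0.9 with Aplnr was found for 3.93% of the 11389 other tested genes, and with Apln for 0.36%.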

How the data were processed

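RNA from whole hearts was purified on columns and sequenced from 8 TruSeq libraries, per the labels' protocols. The tools named are TopHat2 and Cufflinks, with the build mm10 and no versions, per the submitters' processing notes. The deposited values are read as FPKM, quantile-normalised by the authors: sorted columns differed from their mean by at most 2.52%, with a median of 0.478%. Depth therefore cannot be recovered, and no counting interval is given. The sources used here name neither the annotation nor the strandedness.

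A gene was kept at a mean level of 1 FPKM or more (11390 of 22518). Values were transformed to log2(FPKM + 1), which understates changes of low genes, and the groups were compared in limma 3.58.1 (R 4.3.3; eBayes with trend and robust options, no covariate) with Benjamini-Hochberg adjustment over all genes kept. Values given per heart were compared by exact two-sided permutation tests (scipy 1.17.1, Python 3.11.15), 6 in all. The limma step was tested on simulated data. Genes, gene lists and the rule for named genes were chosen with earlier results of these data known. The rule took the members, targeted genes and comparison pairs, called genes of the pathway, pan-endothelial and capillary lists, 6 pathway genes regardless of their call, and the 5 genes most like each member; 1 gene under this rule is not reported here. Other genes named (Pecam1, Cdh5, Cd36, Fabp4, the genes of the tip cell list, Mme, Klkb1, Gnai2, Ddx3y) were added for context after their values were seen. Lists were matched by symbol or, where the symbol differed, by the GENCODE M21 identifier. Alternatives changed the pseudocount, filter, scaling, variance model, sample weights, block and threshold, or left out hearts; a covariate for Ddx3y was added after seeing the data.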

Additional observations from a re-analysis of the deposited data

Results flagged for a closer look

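In the 34 groups of 4 hearts examined for a heart far from the others, 4 such values were found, and chance gives about 5% of groups. The 4 values came from knockout replicate 4 and wild type replicate 1, in quantities that all hold Apln. They are therefore not independent, and their number cannot be set against that 5%. In knockout replicate 4 the log2 ratio of Apln to Aplnr was 2.36, while the other 3 knockout hearts lay between 1.34 and 1.39. In the same heart the ratio set against that of Adm to Calcrl was 2.58, and the other knockout hearts lay between 1.24 and 1.43. This library carries a number in its title that stands apart from those of the other 7. A single heart cannot be told apart from its library number. Without it the difference in the log2 ratio of Apln to Aplnr between the groups was 2.86. In wild type replicate 1 Apln relative to the pan-endothelial genes was -1.68, while the other wild type hearts lay between -1.16 and -1.12. In this heart the ratio of Apln to Aplnr set against that of Vegfa to Kdr was -3.15, and the other wild type hearts lay between -2.38 and -2.23.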

How the results depend on the processing

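Aplnr was lower in knockout hearts under all 18 alternatives (log2 change -2.79 to -2.01) and called under all but the minimum change of 1.5-fold (-2.47, adjusted p = 0.148). Apln was higher under all 18 (0.41 to 0.92), and called only with array weights (0.71), without knockout replicate 4 (0.84), without both replicates 4 (0.92) and with the Ddx3y covariate (0.78); with 1 heart left out it ran from 0.41 to 0.84. The count of 1385 called genes became 613 with the replicate block and 37 at the minimum change of 1.5-fold, and ran from 575 to 1820 with 1 heart left out, with the lowest counts on omission of wild type replicate 2 (575), 4 (744) and 3 (840) and of knockout replicate 2 (759) and 3 (893). Pathway genes that fell numbered 2 with all genes above 0 FPKM kept, 2 with array weights, 2 without both replicates 4, 0 with the block and 0 at the minimum change, and 0 to 1 with 1 heart left out. Those that rose numbered 0 at the minimum change and 2 to 6 with 1 heart left out, 6 without knockout replicate 1. At the minimum change the calls of Adm, Calcrl, Angpt2, Tek, Tie1, Robo4, Aqp1, Cd300lg, Arrb1, Gna13, Fgfr1 and Hdac5 were lost, and those of Car4, Rgcc and Tcf15 held; Gna13 was also lost with all genes above 0 FPKM kept and Angpt2 without both replicates 4.

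The permutation tests kept their direction under every alternative. Pairing by number gave 3.11 for the ratio of Apln to Aplnr, 0.87 for Apln and -2.23 for Aplnr relative to pan-endothelial genes, and 2.48, 2.65 and 1.87 against the ratios of Adm, Vegfa and Angpt2 to their receptors, each at an exact sign-flip p = 0.125, the smallest that 4 pairs allow. Without both replicates 4 they were 2.95, 1.11, -1.85, 2.25, 2.5 and 1.77, at the smallest possible exact p of 0.1. With 1 heart left out they ran from 2.86 to 3.20, 0.70 to 1.05, -2.5 to -1.80, 2.17 to 2.61, 2.40 to 2.85 and 1.75 to 1.97, at the smallest possible exact p of 0.0571. These designs cannot pass the threshold. Against 4 pan-endothelial genes Apln was 0.70 higher (exact permutation p = 0.114), where the cause was not tested. Same-numbered hearts did not deviate together, with correlations of -0.226, 0.0093, 0.102 and -0.0966 for numbers 1 to 4, so the block pairs samples that share only a number. The difference of Nos3 ran from -0.04 to 0.15 with 1 heart left out, negative without knockout replicate 1, and that of Egln1 was -0.0041 without both replicates 4, so both reversed. Quantile normalisation hides depth, so the precision of low genes is unknown.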

Other observations

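The genes closest to Aplnr inside the groups differed from those closest over all hearts. After the group mean of each gene was removed, the 5 highest Pearson correlations with Aplnr were those of the cell cycle kinase Cdk4 (r = 0.998), the spindle midzone protein Prc1 (r = 0.998), the calcium pump Atp2b4 (r = 0.996), the mitotic cyclin Ccnb1 (r = 0.994) and the spindle protein Ckap2l (r = 0.994). Prc1 was at 18.9, 8.30, 11.5 and 1.41 FPKM in knockout replicates 1 to 4, and Ccnb1 at 15.8, 7.42, 10.1 and 1.24 FPKM. Both followed the order of Aplnr in these hearts, from replicate 1 over 3 and 2 to 4. Their choice by likeness to Aplnr largely sets this order. Without knockout replicate 4 the correlations of the 5 genes lay between 0.960 (Ccnb1) and 0.989 (Cdk4). The group means of Prc1, 10.1 ± 0.618 FPKM in wild type hearts and 10.0 ± 7.26 FPKM in the knockout group, were close, with a far wider spread in the knockout hearts. These correlations rest mainly on 4 knockout hearts and are a description.

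The same measure between Apln and Aplnr was 0.832, at place 962 of 11388 genes ordered by their likeness to Aplnr, and 0.307 without knockout replicates 1 and 4. For Apln the closest genes inside the groups were Oaf (r = 0.983), the splicing regulator Ptbp1 (r = 0.982), the chaperone partner Ptges3 (r = 0.982), Sec23b (r = 0.979) and the centrosomal gene Lrrcc1 (r = 0.978).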
